A study of Bos taurus with 16 samples.

Results

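Among the 27393 loci of the deposited RNA-Seq table, 73 carried no gene name and were nevertheless abundant in bovine oocytes or embryos. These loci were chosen by their own measured levels: the name begins with "CUFF." and the mean of the 2 samples was at least 1000 normalized counts in 1 or more of 8 stages. They are 2.84% of the 2573 loci so named, and they held 88.5% of all reads on such loci. For comparison, 374 of the 24820 loci with a gene name passed the same threshold, or 1.51%. Because the levels chose the loci, the levels and the read shares are given as a description without a test.

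Each sample was 1 oocyte or 1 embryo grown in vivo, with 2 individuals at each stage and 16 in all. The stages were mature oocytes in metaphase II (MII), 2-, 4-, 8- and 16-cell embryos (2C, 4C, 8C and 16C), early morulae (EM, the 32-cell stage of the study), compact morulae (CM) and blastocysts (BL). The labels name no treatment and no control group, and they give neither breed nor age of the animals. As the replicates of a stage are different individuals, their spread holds both individual and technical differences. The RNA of each individual was amplified in 2 rounds before sequencing. A normalized count is the number of reads on a locus divided by a size factor of the sample. The values are not divided by length, so they compare 1 locus across samples and not the number of molecules of 2 loci.

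Cufflinks is a program that assembles transcripts from mapped reads, and the prefix "CUFF." is the name it gives to an assembled transcript. A locus keeps such a name when no gene of the annotation was assigned to it. Loci of this kind can be long non-coding RNAs, copies of repeats, pieces of known genes beyond their annotated ends or protein-coding genes missing from the annotation. Which of these the 73 loci are was not tested, since the table gives an identifier, a name and the values, and position and sequence were not analysed here. Early development passes from transcripts stored in the oocyte to transcripts made by the embryo. Stored transcripts are degraded over the cleavage divisions, and embryonic genome activation (EGA) starts bulk transcription, which the study places between the 4C and 8C stages of in vivo embryos. The blastocyst then forms trophectoderm and inner cell mass. Below, MII, 2C and 4C (6 samples) are called before EGA, and 8C to BL (10 samples) after EGA.

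Between 607672 and 3379426 reads per sample could be recovered from the normalized counts, with a median of 1347534.5. The smallest number of reads taken as detectable, 3, corresponded to between 1.09 and 5.40 normalized counts, and this floor covers counting error only. The stage labels were checked against marker genes, in reads per 1e6 reads of the sample (CPM). The 12 listed oocyte markers, of which BMP15 had no reads, summed to between 3175 and 10310 CPM before EGA and to between 8.50 and 1527 CPM after it. The 12 blastocyst markers summed to between 145 and 319 CPM before EGA and to between 3021 and 6214 CPM after it. The highest sum was that of 8C replicate 1, above the blastocysts with 5216 and 4973 CPM. This sum thus parts the samples before EGA from those after it, but does not tell the later stages apart. Of the other cell types a flushed embryo could carry, the 12 cumulus and granulosa markers summed to between 564 and 1988 CPM before EGA and between 385 and 875 CPM after it. STAR alone gave between 379 and 1727 CPM of this in every sample, blastocysts included, HAS2 gave at most 298 CPM, PTX3 gave at most 2.66 CPM, and AMH and FOXL2 had no reads. The 5 oviduct and uterine markers reached 75.2 CPM in 2C replicate 1 and at most 6.88 CPM in any other sample, with FOXJ1 without reads. The 4 blood markers reached at most 4.95 CPM, with HBA and HBB without reads. The part of such cells in the levels of the 73 loci was not tested.

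Both 2C and both 8C samples stood apart from each other at the 73 loci. Pearson's r of log2(normalized count + 1) between the samples of a stage was 0.762 at 2C and 0.545 at 8C, against 0.901 to 0.978 at the other 6 stages. These r values run across loci that share their libraries and are not independent replicates. At 2C, replicate 1 correlated more with the MII oocytes (r = 0.889) and replicate 2 more with the 4C embryos (r = 0.973) than with each other. At 8C, replicate 1 correlated more with compact morulae (r = 0.937) than with replicate 2, whose closest stage mean was the other 8C embryo. Over 8186 loci of any name with at least 100 reads in all, the 2C embryos gave r = 0.824 with each other, replicate 1 gave 0.877 with MII and replicate 2 gave 0.935 with 4C. Over the same loci both 8C embryos were closer to compact morulae (r = 0.870 and 0.756) than to each other (r = 0.723). Each sample was set against the mean of 2 samples of another stage, but against 1 sample of its own stage. Other samples were also closer to another stage. Over these loci 16C replicate 1 was closer to compact morulae (r = 0.882 against 0.868), and both compact morulae to early morulae (r = 0.884 and 0.917 against 0.875). At the 73 loci EM replicate 1 was closest to 16C and CM replicate 2 to early morulae. In 8C replicate 2 the oocyte markers still summed to 1527 CPM, against 28.5 CPM in 8C replicate 1. The counts by stage and by period below are therefore also given with each of these 4 samples left out.

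Reads on the 73 loci made up between 5.12% and 34.0% of the reads of a sample. Before EGA the share was 16.8% ± 12.2 (SD, n = 6), and after EGA it was 7.12% ± 2.24 (SD, n = 10). The high shares were those of 2C replicate 2 with 34.0%, 4C replicate 1 with 28.9% and 4C replicate 2 with 16.7%. The lowest share before EGA, 5.16% in 2C replicate 1, came from the same stage as the highest. Without the locus with the most reads, CUFF.56339.1, the other 72 loci held 7.05% ± 1.75 (SD, n = 6) before EGA and 6.70% ± 2.11 (SD, n = 10) after it. The wide range before EGA thus lay on 1 locus. Without 2C replicate 2, the share before EGA was 13.4%.

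**Figure D1:**
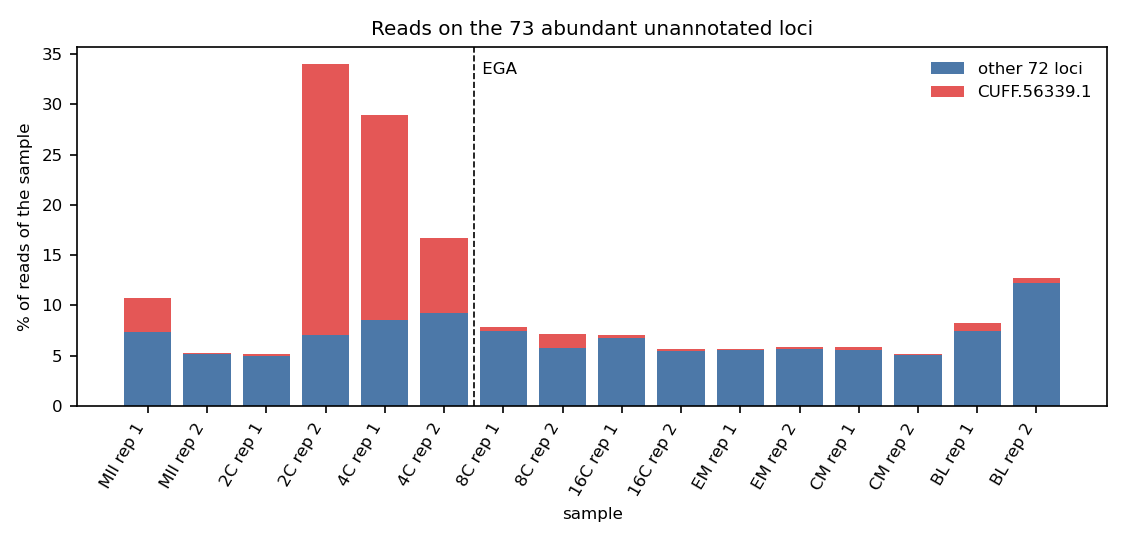
Percentage of the reads of each sample (vertical axis) that fell on the 73 loci, for the 16 samples in stage order, with CUFF.56339.1 in red and the other 72 loci in blue; the dashed line marks EGA. The red part reaches 27.0% of reads in 2C replicate 2 and 20.4% in 4C replicate 1, while the blue part stays between 4.94% and 12.2%.

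The stage of the highest mean was MII for 30 of the 73 loci, 4C for 12, 8C for 13, 16C for 5, EM for 1, CM for 2 and BL for 10, and 2C for 0. Before EGA therefore lay the highest mean of 42 loci (57.5%), close to the 55.3% of the 374 named loci. Loci peaking in blastocysts made up 13.7% of the 73 and 6.42% of the named loci, a difference that was not tested. Scaled to total reads (CPM) in place of size factors, 59 of the 73 loci kept the stage of their highest mean and 69 kept the period, with 38 highest before EGA. In CPM, 20 were highest at MII, 1 at 2C, 17 at 4C, 11 at 8C, 5 at 16C, 3 in early morulae, 3 in compact morulae and 13 in blastocysts, so the number highest at MII rests on the size factors. Without 8C replicate 1, 5 loci were highest at 8C, 7 at 16C and 6 in compact morulae, and without 8C replicate 2, 16 were highest at 8C and 3 at 16C. Leaving out a 2C embryo moved at most 3 loci to 2C. With any of these 4 samples left out, between 42 and 44 loci were highest before EGA. The median of the highest stage mean was 2555 normalized counts for the 73 loci and 2416 for the named loci. Of the 73 loci, 59 (80.8%) had reads in all 16 samples, against 91.4% of the named loci. Stage means varied widely within a locus: the highest was a median of 32.9 times the lowest (after adding 1 to each), against 20.9 times for the named loci, and over 100 times for 25 of the 73 loci (34.2%, against 25.7%).

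**Figure D2:**
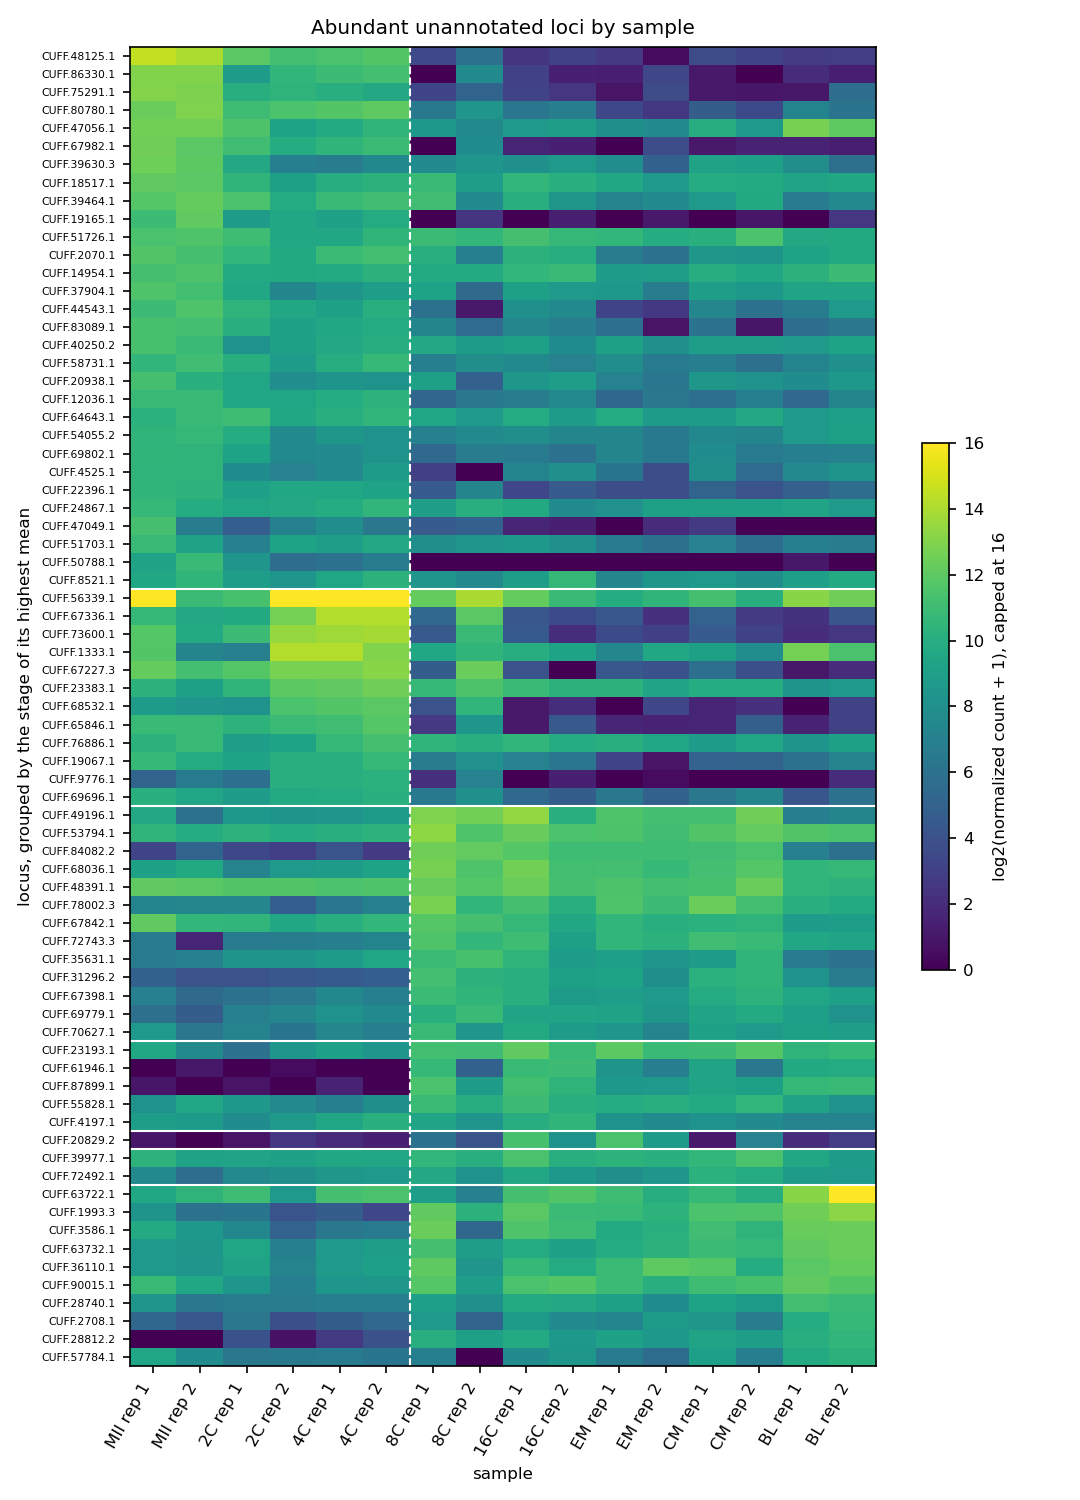
log2(normalized count + 1) of the 73 loci (rows, grouped by the stage of their highest mean and separated by white lines) in the 16 samples (columns; the dashed line marks EGA), with the colour scale capped at 16. The 42 loci in the 2 upper blocks are bright on the left, the 31 loci below on the right, and the column of 8C replicate 2 keeps brighter cells in the second block than 8C replicate 1.

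The locus with the most reads was CUFF.56339.1 (XLOC_046224). Its normalized counts were 70434 and 1908 in the MII oocytes, 2584 and 332913 in the 2C embryos and 270672 and 98392 in the 4C embryos. After EGA they were 4679 and 15721 at 8C, 4851 and 1810 at 16C, 951 and 1397 in early morulae, 2499 and 1050 in compact morulae, and 8964 and 5924 in blastocysts. Samples before EGA thus fell into 4 high and 2 low values, with a high and a low sample at both MII and 2C, and the low ones lay within the range after EGA. In 2C replicate 2 and both 4C embryos it had more reads than any other locus of the table, and in MII replicate 1 it ranked 3. It had at least 1000 normalized counts in the mean of every stage, as had 3 of the 73 loci in all.

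A further 11 loci had their highest mean at 4C. CUFF.67336.1 (XLOC_054155) had 1639 and 797 normalized counts at MII, 831 and 6323 at 2C, and 18286 and 18123 at 4C. At 8C it had 43.2 and 3889, and from 16C on it stayed between 3.91 and 31.0. CUFF.73600.1 (XLOC_060471) was high in the same samples, with 3582 and 891 at MII, 1984 and 11531 at 2C, 13540 and 14709 at 4C, 21.6 and 1753 at 8C, and between 3.04 and 23.3 from 16C on. For both loci the 4C embryos gave nearly equal values, while those at 2C and 8C were several times apart.

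CUFF.1333.1 (XLOC_000185) had 3331 and 155 at MII, 123 and 18076 at 2C, 18410 and 8088 at 4C, 724 and 1420 at 8C, and 6444 and 2736 in blastocysts. It was high in the samples in which CUFF.56339.1 was high: over the 6 samples before EGA the r of the log2 values of both loci was 0.994, and over all 16 it was 0.892. These were the highest r with CUFF.56339.1 among the other 72 loci. A high r over the 6 samples need not hold over all 16, as for CUFF.20829.2 with 0.878 and -0.485. CUFF.67227.3 (XLOC_054142) had 4793 and 2337 at MII, 7133 and 9259 at 4C, 25.2 and 5221 at 8C, and between 0 and 57.6 from 16C on. CUFF.68532.1 (XLOC_054289) had 462 and 321 at MII, 3422 and 3873 at 4C, and at most 9.38 from 16C on. CUFF.9776.1 (XLOC_007179) had 35.1 and 95.7 at MII, 57.0 and 1105 at 2C, 1029 and 1180 at 4C, and at most 3.17 from 16C on. The 12 loci of this group were all higher in replicate 2 than in replicate 1 of the 2C embryos, and 11 of them were higher in replicate 2 of the 8C embryos.

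Of the 30 loci with their highest mean in MII oocytes, CUFF.48125.1 (XLOC_039617) was the highest, with 23341 and 16600 normalized counts. It had 3908 and 2268 at 2C, 2668 and 3380 at 4C, 10.8 and 60.8 at 8C, and at most 12.2 later. All 6 samples before EGA lay above all 10 after it. CUFF.86330.1 (XLOC_070196) had 8011 and 7921 at MII, 456 and 1511 at 2C, 1968 and 2408 at 4C, 0 and 211 at 8C, and at most 9.38 later. CUFF.75291.1 (XLOC_060599) had 8381 and 7243 at MII, between 802 and 1381 at 2C and 4C, 9.01 and 34.4 at 8C, and at most 11.7 later apart from 52.3 in BL replicate 2. Both had oocyte values several times higher than any embryo in normalized counts. In CPM the margin was smaller. CUFF.86330.1 then had 3846 and 3264 at MII and at most 1822 in an embryo, and CUFF.75291.1 had 4023 and 2984 and at most 1119.

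Part of the oocyte loci stayed detectable. Of these 30, 21 still had a mean of at least 100 normalized counts in blastocysts and 6 had a mean under 10. CUFF.47056.1 (XLOC_037372) was high at both ends, with 6062 and 6165 at MII, 874 and 1396 at 4C, 249 and 208 in early morulae, and 6770 and 4213 in blastocysts. In CPM its highest mean lay in blastocysts, with 6554 and 3903 there and 2910 and 2540 at MII. CUFF.50788.1 (XLOC_041463) was at the other extreme, with 592 and 1724 at MII, 64.6 and 106 at 4C, and no reads in 9 of the 10 samples after EGA.

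**Figure D3:**
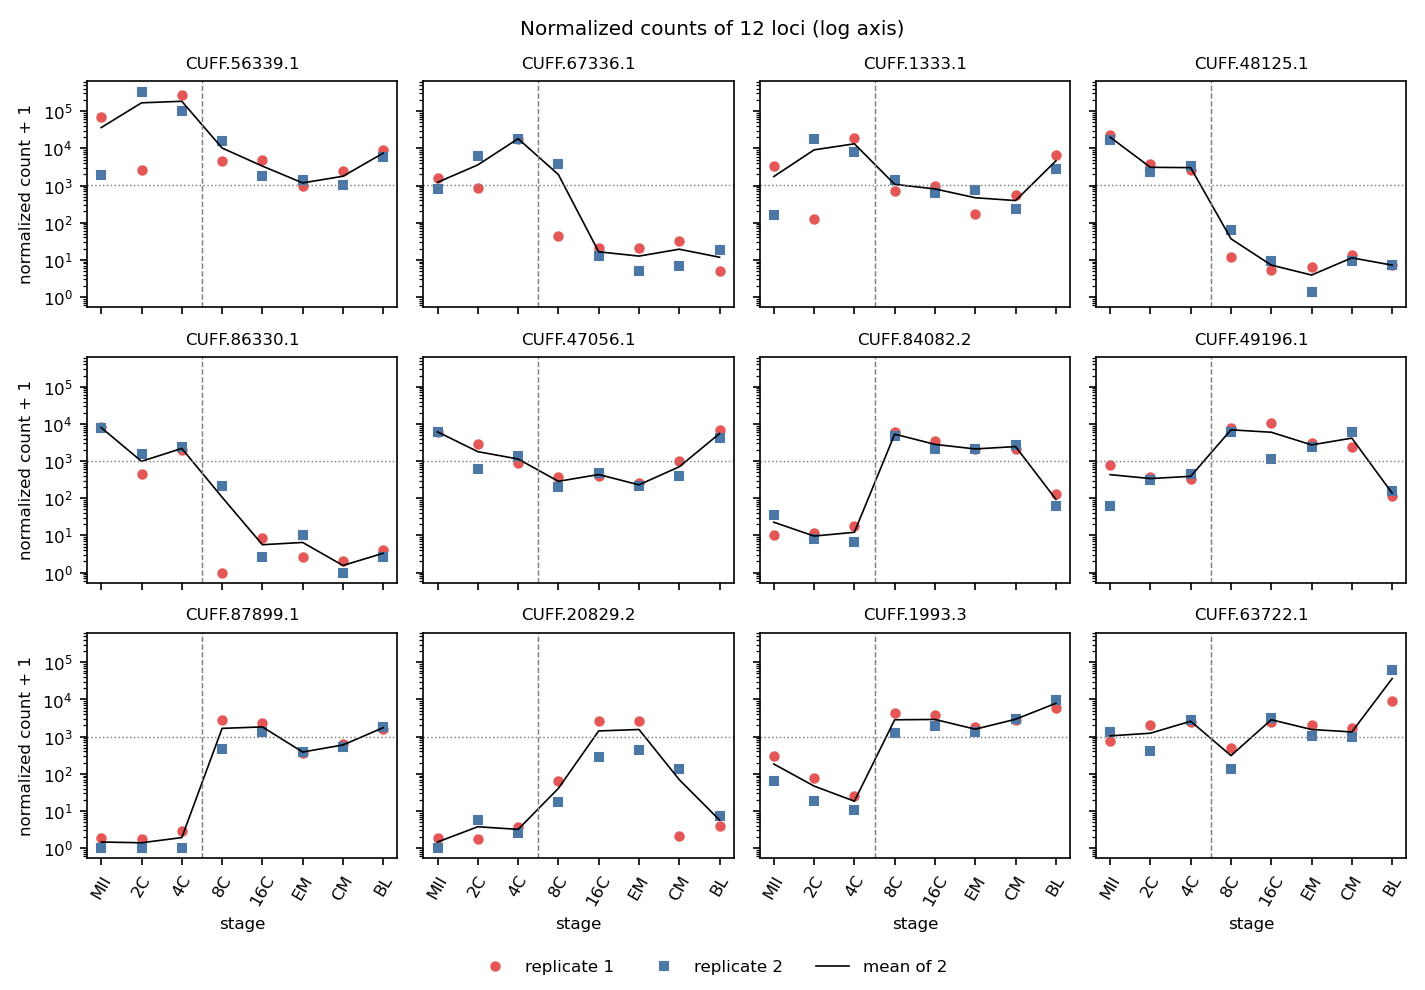
Normalized counts plus 1 (log axis) of 12 loci in each sample against stage, with circles for replicate 1, squares for replicate 2, a line through the mean of 2, a dashed line at EGA and a dotted line at 1000. CUFF.56339.1 and CUFF.1333.1 have a low sample at MII and 2C, CUFF.84082.2 and CUFF.49196.1 are high from 8C to CM and low in blastocysts, and CUFF.63722.1 has blastocyst values of 9278 and 63732.

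After EGA lay the highest mean of 31 loci, 13 of them at 8C. CUFF.49196.1 (XLOC_039447) had between 61.7 and 799 normalized counts before EGA, 7619 and 6246 at 8C, 10816 and 1113 at 16C, 2381 and 5896 in compact morulae, and 112 and 160 in blastocysts. CUFF.84082.2 (XLOC_067122) had between 5.69 and 34.0 before EGA, 5947 and 4660 at 8C, between 2067 and 3555 from 16C to CM, and 126 and 60.2 in blastocysts. Every sample from 8C to CM thus lay above every oocyte, earlier embryo and blastocyst for both loci. CUFF.53794.1 (XLOC_043117) was present throughout, with between 962 and 1351 before EGA, 9833 and 3063 at 8C, and between 2159 and 4903 later.

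Loci highest at 16C or in morulae were fewer. CUFF.23193.1 (XLOC_017255) had between 60.9 and 786 before EGA and 4287 and 1865 at 16C. CUFF.61946.1 (XLOC_050161) had at most 1.06 before EGA, which is at or under the floor, 1704 and 29.8 at 8C, 1823 and 2010 at 16C, and 849 and 936 in blastocysts. CUFF.87899.1 (XLOC_075535) likewise had at most 1.84 before EGA, 2883 and 454 at 8C, and 2280 and 1373 at 16C. CUFF.20829.2 (XLOC_016839) was the only locus highest in early morulae by normalized counts, and had 2567 and 280 at 16C, 2669 and 443 in early morulae, 1.11 and 136 in compact morulae, and at most 63.1 elsewhere. CUFF.39977.1 (XLOC_030277) had 1577 and 2746 in compact morulae and between 464 and 2763 in all samples, and CUFF.72492.1 (XLOC_057713) had 1208 and 902 in compact morulae.

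Of the 10 loci highest in blastocysts, CUFF.63722.1 (XLOC_051067) was the most abundant. It had 9278 and 63732 normalized counts in the blastocysts and between 131 and 3242 in the other 14 samples. Its blastocyst values were 2.78 apart on the log2 scale, but both exceeded every other sample. In BL replicate 2 it took 5.90% of all reads, and in BL replicate 1 it took 0.898%. CUFF.63732.1 (XLOC_051068), the next identifier, had 4323 and 5097 in blastocysts and 2506 and 498 at 8C. Both loci have r = 0.560 over the 16 samples, and whether they are parts of 1 transcript was not tested. The other pair of the 73 loci with close identifiers, CUFF.51726.1 (XLOC_041360) and CUFF.51703.1 (XLOC_041363), both highest at MII, had r = 0.181. CUFF.1993.3 (XLOC_000750) had 304 and 61.7 at MII, 24.9 and 9.75 at 4C, 4419 and 1258 at 8C, and 6036 and 9722 in blastocysts.

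From compact morulae to blastocysts, 10 of the 73 loci had a mean at least 3 times higher (after adding 1), and for 9 of them (12.3%) the 2 blastocysts lay above both compact morulae. The same held for 9.81% of all 18318 loci with reads and for 6.42% of the named loci. In 6 of these 10 the highest mean lay before EGA, among them CUFF.56339.1, CUFF.1333.1 and CUFF.47056.1. A mean at least 3 times lower in blastocysts was found for 12 loci, for 10 of them (13.7%) without overlap of the 2 against 2 samples, against 4.75% of all loci with reads and 17.4% of the named loci. Neither count is a result about the 73 loci, which were chosen by their stage means. With 2 samples a group, an exact permutation test cannot reach 0.05, and none was made.

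Taking for each locus only the stage of its own highest mean, the largest log2 differences between the 2 samples were those of CUFF.47049.1 (XLOC_037654), with 2470 and 105 at MII, CUFF.63722.1 at BL and CUFF.20829.2 at EM. Wider differences were found at other stages, such as those of CUFF.56339.1 and CUFF.1333.1 at 2C and of CUFF.67227.3 at 8C. At the 73 loci, the 8C stage had the widest spread: 44 of the 73 loci were more than 2 times apart, against 9 at 4C. The median difference between the 8C embryos was 1.53 on the log2 scale for the 73 loci and 0.84 for the named loci, whose widest median difference, 0.97, was at 2C. Replicate 2 was the higher one for 11 of the 12 loci highest at 4C, but for 16 of the 30 highest at MII, where replicate 1 was higher for 13. Of the 31 loci with the highest mean after EGA, 29 were higher in replicate 1. The groups are set by stage means that include these samples, so the counts are a description. Over 10 times apart were 8 loci with the higher value in replicate 2, such as CUFF.67227.3 and CUFF.67336.1, and 9 with the higher value in replicate 1, such as CUFF.3586.1 (XLOC_000472) with 5259 and 39.0.

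**Figure D4:**
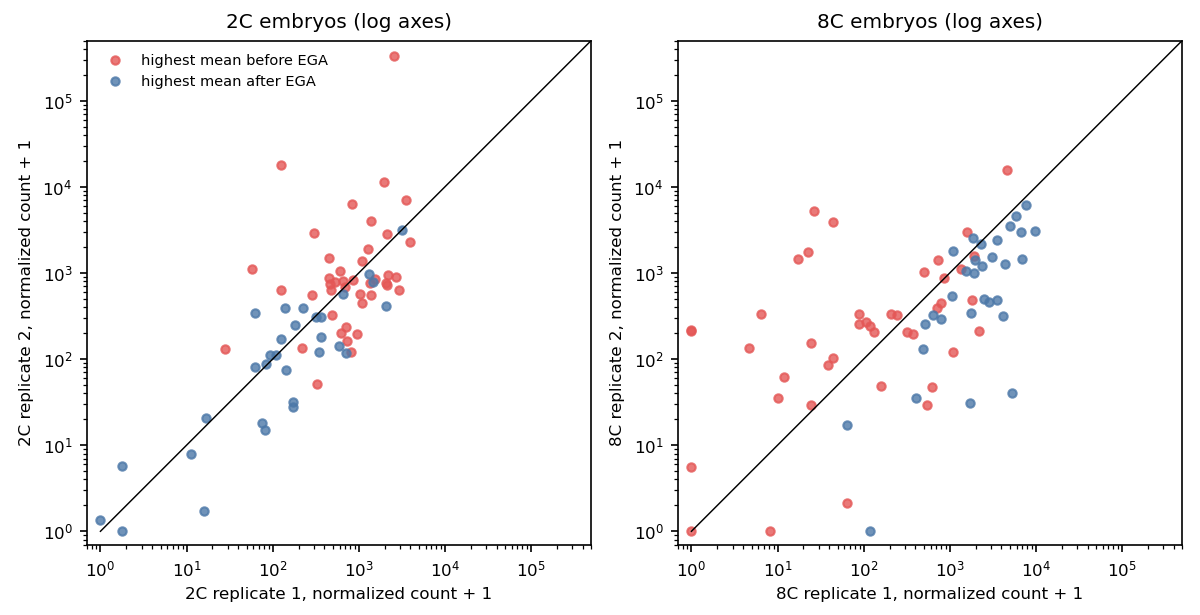
Normalized counts plus 1 of the 73 loci in replicate 2 against replicate 1 of the 2C embryos (left) and the 8C embryos (right), on log axes, with loci highest before EGA in red and after EGA in blue; the line marks equal values. At 8C, 29 of 31 blue points lie below the line, and of the 42 red points 27 lie above it and 14 below.

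The levels before and after EGA were then set against each other by limma on log2(normalized count + 1), fitted to all 9670 loci that passed a filter on low reads, with a mean for each stage and Benjamini-Hochberg adjustment at 0.05. All 73 loci passed the filter. A locus picked for a high mean in some stage is more apt to differ between stages than a locus at large, so the counts below are no finding about the 73 loci. After EGA, 26 of the 73 were higher and 37 were lower, while of all loci tested 37.9% were higher and 32.1% lower. Of the 374 named loci, 141 were higher and 168 lower. The median difference was -1.02 on the log2 scale for the 73 loci, -0.54 for the named loci and 0.23 for all loci tested. Without 2C replicate 1 the counts were 26 and 34, beside 3600 and 3196 of all 10894 loci then tested. Without 2C replicate 2 they were 25 and 38, beside 3713 and 3174 of 10922. Leaving out 8C replicate 1 also gave 25 and 38, beside 3955 and 3443 of 11192. Leaving out 8C replicate 2 gave 26 and 36, beside 4028 and 3525 of 11112. The 6 and 10 samples did not overlap for 12 loci that were higher after EGA and 15 that were lower. Among the 18318 loci with reads, 6.63% were higher without overlap and 7.18% lower without overlap, and among the named loci 82 and 101 were. Without 8C replicate 2 the loci without overlap were 15 higher and 21 lower, beside 7.72% and 8.30% of all loci. They were 12 and 17 with 1 or the other 2C embryo left out. Of all loci, these were 7.01% and 7.85% without 2C replicate 1 and 6.97% and 7.51% without 2C replicate 2. Without 8C replicate 1 they were 12 and 15, beside 7.04% and 7.36% of all loci. The overlap of CUFF.67336.1, CUFF.73600.1 and CUFF.68532.1 came from 8C replicate 2 alone, with 3889, 1753 and 1453 normalized counts.

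CUFF.56339.1 was among the lower loci, although its low MII and 2C samples lay within the range after EGA. CUFF.87899.1, CUFF.61946.1 and CUFF.28812.2 had the largest rises without overlap, and CUFF.48125.1, CUFF.19165.1 (XLOC_014926) and CUFF.67982.1 (XLOC_054239) the largest falls. Each of these 6 is at or near the floor in some samples of its lower period, so no fold is given. CUFF.19165.1 had 2017 and 4409 at MII, between 464 and 909 at 2C and 4C, and at most 4.75 after EGA. CUFF.67982.1 had between 959 and 6021 before EGA, 0 and 216 at 8C, and at most 12.5 later. CUFF.28812.2 (XLOC_021803) had at most 15.0 before EGA and between 364 and 1459 after it.

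Between the 4C and 8C stages, 17 of the 73 loci were higher at 8C and 24 lower. Of all loci tested, 17.7% were higher and 19.1% lower, and of the named loci 110 and 112 were. CUFF.63722.1, highest in blastocysts, was among the lower loci, with 2458 and 2738 at 4C and 485 and 131 at 8C. Without 8C replicate 2 the counts were 21 higher and 21 lower, beside 1784 and 2060 of all 11112 loci then tested. Without 8C replicate 1 they were 12 and 18, beside 1300 and 1170 of 11192. With 1 or the other 2C embryo left out they were 17 and 26. Over all loci they were then 1728 and 1884 of 10894 without 2C replicate 1, and 1723 and 1890 of 10922 without 2C replicate 2. The median difference moved from -0.98 to -0.29 on the log2 scale without 8C replicate 2. Leaving out 4C replicate 1 gave 10 higher, beside 1029 of all 10948 loci, and leaving out 4C replicate 2 gave 13 lower, beside 906 of 10920.

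Before EGA, between MII and 4C, 4 of the 73 loci were higher at 4C and 7 lower, while 6.48% of all loci tested were higher and 2.19% lower, and 29 and 28 of the named loci. The higher ones were CUFF.23383.1 (XLOC_017336), with 1259 and 551 at MII and 4356 and 5832 at 4C, CUFF.35631.1 (XLOC_027515), CUFF.69779.1 (XLOC_056575) and CUFF.28812.2. CUFF.67336.1 and CUFF.73600.1, whose 4C values exceeded both MII values, did not pass (adjusted p = 0.109 and 0.208 by limma), nor did CUFF.56339.1 (adjusted p = 0.187 by limma). The lower ones were CUFF.48125.1, CUFF.1993.3, CUFF.47056.1, CUFF.39630.3 (XLOC_030788), CUFF.54055.2 (XLOC_043557), CUFF.69802.1 (XLOC_056599) and CUFF.50788.1. CUFF.39630.3 had 5618 and 3924 at MII and 109 and 174 at 4C. These counts depended on the samples and the scaling, as did those over all loci. None of the 73 loci was higher or lower when MII replicate 2, 4C replicate 1 or 4C replicate 2 was left out, where 19, 14 and 20 had an unadjusted p under 0.05. In the same fits the higher and lower loci among all tested went from 627 and 212 of 9670 to 65 and 17 of 10992, 48 and 14 of 10948, and 29 and 10 of 10920. Scaled to total reads, 8 were higher and 1 lower, beside 1057 and 55 of all 9670 loci and 62 and 12 of the named loci.

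The steadiest loci by the ratio of the highest to the lowest stage mean were CUFF.48391.1 (XLOC_039271) with 3.08 times, CUFF.64643.1 (XLOC_051205) with 3.19 times and CUFF.24867.1 (XLOC_019840) with 3.20 times. CUFF.48391.1 had between 1277 and 5524 normalized counts in all 16 samples, with the lowest values in the 2 blastocysts. A ratio under 3 was found for 0 of the 73 loci and for 10 of the 374 named loci. Just inside the threshold lay CUFF.69696.1 (XLOC_057232), with 1027 ± 178 (SD, n = 2) at 4C, and CUFF.70627.1 (XLOC_057393), with 1757 and 339 at 8C. Just outside lay CUFF.77001.1 (XLOC_063707), with 994 ± 106 (SD, n = 2) at 8C, and CUFF.38879.1 (XLOC_030176), with 361 and 1548 at MII.

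The named loci on either side of each locus, in the order of the identifiers, were looked up for comparison. Neighbouring identifiers matched by name lay on the same chromosome of assembly ARS-UCD2.0 in 95.2% of cases. Order within a chromosome, strand and distances were not checked, so a neighbour by identifier need not be the nearest gene. Both neighbours were within 3 identifiers for 72 of the 73 loci. For 54 of the 73 loci both neighbours stayed under 100 normalized counts in every stage mean, and for 5 a neighbour reached 1000. CUFF.56339.1 stood between LAP, listed at 0 in all samples, and GPM6A, a neuronal membrane glycoprotein, with a highest stage mean of 4.01. CUFF.67336.1 stood between CHP and ADCY1, an adenylate cyclase, both under 1 in every stage mean, and CUFF.1333.1 between CD86, a co-stimulatory ligand of immune cells, and CASR, the calcium-sensing receptor, with 1.80 and 32.7. CUFF.63722.1 and CUFF.63732.1 lay together between PRKAA2, a catalytic subunit of AMP-activated kinase, with 20.4, and BSND, listed at 0.

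The loci with an abundant neighbour were CUFF.48125.1 (LOC100850270, 18640), CUFF.19067.1 (RPS20, a ribosomal protein, 6696), CUFF.24867.1 (NADK, NAD kinase, 2592), CUFF.69696.1 (HNRNPA1, an RNA-binding protein of splicing, 1600) and CUFF.35631.1 (LOC536606, 1537). The r with these neighbours over the 16 samples was -0.951 for CUFF.48125.1, -0.518 for CUFF.19067.1, 0.496 for CUFF.24867.1, -0.881 for CUFF.69696.1 and -0.232 for CUFF.35631.1. An r of at least 0.8 with a neighbour was found for 9 of the 70 loci with a neighbour that had reads. Among the named loci it was found for 45 of 360, a similar proportion. In the 9 are CUFF.50788.1 with MAPRE2, which binds microtubule ends (r = 0.895), CUFF.47049.1 with VPRBP (r = 0.872) and CUFF.78002.3 (XLOC_063890) with ARL10 (r = 0.879).

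**Figure D5:**
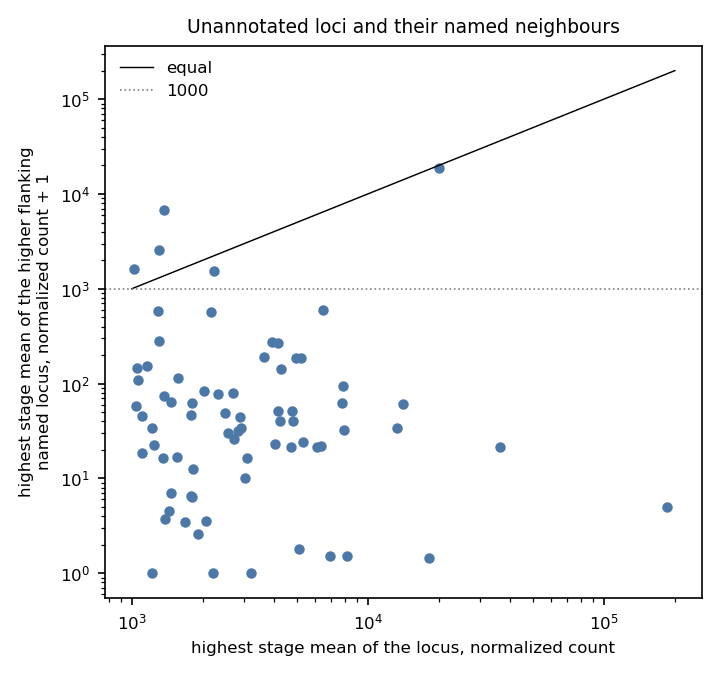
Highest stage mean of each of the 73 loci (horizontal, log axis) against the highest stage mean plus 1 of the higher of its 2 neighbouring named loci by identifier (vertical, log axis), in normalized counts; the solid line marks equal values and the dotted line 1000. Of the points, 70 lie below the solid line, and the median of the higher neighbour is 39.0.

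For the 5 most abundant loci, the named loci with the most similar profile were sought among 2220 loci with a mean of at least 50 normalized counts. With the oocyte locus CUFF.48125.1 these were FAM163A (r = 0.985) and WEE2 (r = 0.985), a kinase of the oocyte that holds back meiosis and that peaked at MII at 86705 normalized counts. CUFF.67336.1 was closest to CCDC135 (r = 0.968) and KIAA1244 (r = 0.964), and CUFF.73600.1 to PEX5L (r = 0.977) and SFRP1 (r = 0.976), a secreted antagonist of Wnt. CUFF.56339.1 was closest to VGLL4 (r = 0.912), a transcriptional cofactor, and THOC1 (r = 0.885), a subunit of the mRNA export complex THO. CUFF.63722.1 was closest to BRP44L (r = 0.827) and PRDX1, a peroxidase (r = 0.790). Each r is over 16 samples of 8 stages, which the loci share, and describes these samples only.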

How the data were processed

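Single bovine oocytes and embryos of 8 stages were measured by RNA-Seq, 2 per stage. Per the labels, the authors used cutadapt, FastQC, TopHat, Cufflinks and HTSeq; versions and the genome build are not given in the sources used here. The deposited values are a signal: read counts that the authors divided by a size factor per sample. Dividing each sample by its smallest non-zero value gave whole numbers throughout (within 0.01), taken as the reads, 607672 to 3379426 per sample. How reads mapping to several places were counted is not given, so repeat-derived loci may hold reads of other copies.

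The 73 loci, the lists and the naming rules were chosen with earlier results of these data known. Loci named in the text were the 10 most abundant, the 2 highest per stage, the 3 largest rises and falls without overlap, the 3 steadiest, the 3 with the largest log2 difference between the samples of their own highest stage, those at the threshold and those with neighbouring identifiers. Further loci named (CUFF.47056.1, CUFF.84082.2, CUFF.68532.1, CUFF.9776.1, CUFF.50788.1, CUFF.3586.1, CUFF.78002.3, CUFF.19067.1, CUFF.38879.1, CUFF.77001.1 and those called between MII and 4C) were chosen after their values were seen or lie at the threshold. Neighbours were taken in identifier order, because rows of the table are not in genome order.

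Tests were by limma 3.58.1 (R 4.3.3; empirical Bayes with trend) on log2(value + 1), so changes of loci with few reads are understated, over the 9670 loci kept by filterByExpr of edgeR 4.0.16. Alternatives were edgeR and DESeq2 1.42.0 on the recovered reads, pseudocounts of 0.5 and 5, other scalings, no filter, other samples in the fit and the replicate number as a block. The highest stage by CPM, and the stage and overlap counts without each 2C and 8C sample, were added after seeing the data. The fit was tested on simulated data.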

Additional observations from a re-analysis of the deposited data

Results flagged for a closer look

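BL replicate 2 had 12.8% of its reads on the 73 loci, and its gap to the next of the 10 samples after EGA was large for their range. Of these reads, 5.90% of all reads of the sample lay on CUFF.63722.1. The next highest share was that of the other blastocyst, BL replicate 1, with 8.29%. The criterion is nominal at 95% for samples of 1 kind, so that about 1 in 20 such groups would meet it by chance. As the 10 samples came from several stages, this rate need not hold for them.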

How the results depend on the processing

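Before against after EGA, no alternative took the counts of higher or lower loci beyond 1.5 times the reported 26 and 37, and 54 of 63 calls held in all 25 alternatives, against 18 of 41 between 4C and 8C and 0 of 11 between MII and 4C. No call turned its direction. Leaving out single samples gave 10 to 21 higher and 13 to 26 lower loci at 8C against 4C, and 0 to 6 higher and 0 to 11 lower at 4C against MII, where either 8C sample left out gave 11 lower, MII replicate 1 gave 2, and any sample from 16C on gave 3 or 4. Over all loci tested, the counts of 4C against MII moved as well, from 627 and 212 of 9670. They were 849 and 321 of 11192 without 8C replicate 1, and 868 and 328 of 11112 without 8C replicate 2. Leaving out MII replicate 1 or any sample from 16C on gave fewer, such as 541 and 152 of 11194 without 16C replicate 1. The counts over all loci for the extremes of 8C against 4C are given in the Results. For 4C against MII the reported counts are 4 higher and 7 lower. Those of the alternatives follow, with the counts over all loci tested in brackets. edgeR gave 2 and 2 (315 and 83 of 9670) and DESeq2 5 and 12 (555 and 365 of 7420). Total-read scaling gave 8 and 1 (1057 and 55 of 9670) and no filter 3 and 3 (624 and 186 of 18318). The 2 stages alone gave 7 and 15 (637 and 382 of 6429). The cause of these differences was not tested. Total-read scaling moved the median of all loci from 0.23 to 0.62 before against after EGA and from 0.15 to 0.69 between MII and 4C, on the log2 scale, and gave 27 higher and 30 lower loci after EGA.

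A threshold of 2000 left 44 loci and one of 500 gave 101. With both samples at 1000 or more there were 61, and with 1000 CPM 56, all of them among the 73. Replicate 1 alone and replicate 2 alone shared 63 loci.

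Same-numbered samples are different individuals, and their deviations did not go together (r between stages -0.272 to 0.144, median 0.00608, 1 of 28 pairs over 0.1). With the replicate block the counts were 26 and 38 after EGA, 19 and 25 at 8C, and 5 and 5 at 4C. Of all 9670 loci, the same fit gave 3660 and 3090, 1688 and 1827, and 571 and 183.

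With 2 individuals per stage and 2 rounds of amplification, the spread of a stage rests on 2 values, and the fits share 1 spread per locus over all stages. Intervals from reads would cover counting error only. At 3 reads the floor reached 5.40 normalized counts, and levels below it cannot be told from 0.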
